A study of Mus musculus with 16 samples.

Results

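The genes described here set how much cholesterol leaves a cell: the liver X receptors (LXRs), their partner receptor, transporters that export cholesterol or related lipids, the apolipoprotein that carries it away, and an LXR-induced ligase that limits its uptake. The 10 genes were taken by name, whatever their measured change: Nr1h3, Nr1h2, Rxra, Abca1, Abca2, Abca7, Abcg1, Abcg4, Apoe and Mylip, out of 27670 genes on the array, with every probe that carries their names. All 10 were measured, by 14 probes. RNA came from the cerebellum of 8 BALB/c-background mice aged 3 weeks, 4 homozygous for the Npc1m1N allele (Npc1-/-, strain BALB/cNctr-Npc1m1N/J) and 4 wild type, bred in house from heterozygous parents; no mouse was given a treatment, and the allele is carried in every cell of the body. Each genotype had 4 one-colour Agilent arrays, numbered as replicates 1 to 4. The labels give neither sex nor litter, nor do they say which mouse was put on which array, so p-values measure the spread between arrays.

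LXRs are nuclear receptors that bind oxysterols, which are oxidised forms of cholesterol, and act on DNA as pairs with a retinoid X receptor. Their targets include the exporters Abca1 and Abcg1, the carrier Apoe, and Mylip, which marks lipoprotein receptors for degradation. Npc1 is the lysosomal membrane protein through which cholesterol taken up by endocytosis leaves the lysosome, and in the brain astrocytes and microglia release cholesterol on particles that contain Apoe.

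Levels below are log2 of the background-subtracted signal relative to the 75th percentile of the same array, so a value compares 1 probe between arrays and never 2 probes with each other. On wild-type replicate 2 the number of probes well above background was the lowest, 22182, against 25958 to 28137 on the other 7 arrays. Arrays correlated at 0.969 to 0.994 over genes. The cerebellar markers Pcp4 and Itpr1 of Purkinje cells and Cbln1 and Zic1 of granule cells were well above background on all 8 arrays. Npc1 itself read -2.53, -2.44, -2.32 and -2.60 on the Npc1-/- arrays, against -0.52, -0.40, -0.64 and -0.37 on the wild-type arrays. That is a 3.98-fold lower level in Npc1-/- (log2 difference -1.99 ± 0.10 SE, limma adjusted p = 0.00045), and no array went against its label; whether the probe lies inside the altered stretch of the transcript is not given in the sources used here.

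Among the 10 genes, Rxra, Mylip, Abca1 and Apoe had the same kind of reading: each averaged 1.27 to 1.29 times its wild-type level in Npc1-/- cerebellum, and each missed the threshold once the p-value was adjusted over all 17983 genes tested. The other 6, Abcg1, Abca2, Nr1h3, Nr1h2, Abcg4 and Abca7, differed by -0.14 to -0.01 on the log2 scale. None of the 10 passed (limma, adjusted p under 0.05), where 0.767% of all genes did and 0.734% did so with a higher level in Npc1-/-. At an unadjusted p under 0.05, 4 of the 10 were reached, against 7.40% of all genes. This count depends on the fit. With the mean of all probes of a gene, Rxra and Mylip did not reach it (limma unadjusted p = 0.098 and 0.060). With the replicate number as a block, Abca1 and Apoe did not (limma unadjusted p = 0.067 and 0.054). In 3 of the 10 the 4 Npc1-/- arrays did not overlap the 4 wild-type arrays, against 4.92% of all genes. The median log2 difference of the 10 genes was -0.017, beside -0.015 over all genes tested.

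**Figure D1:**
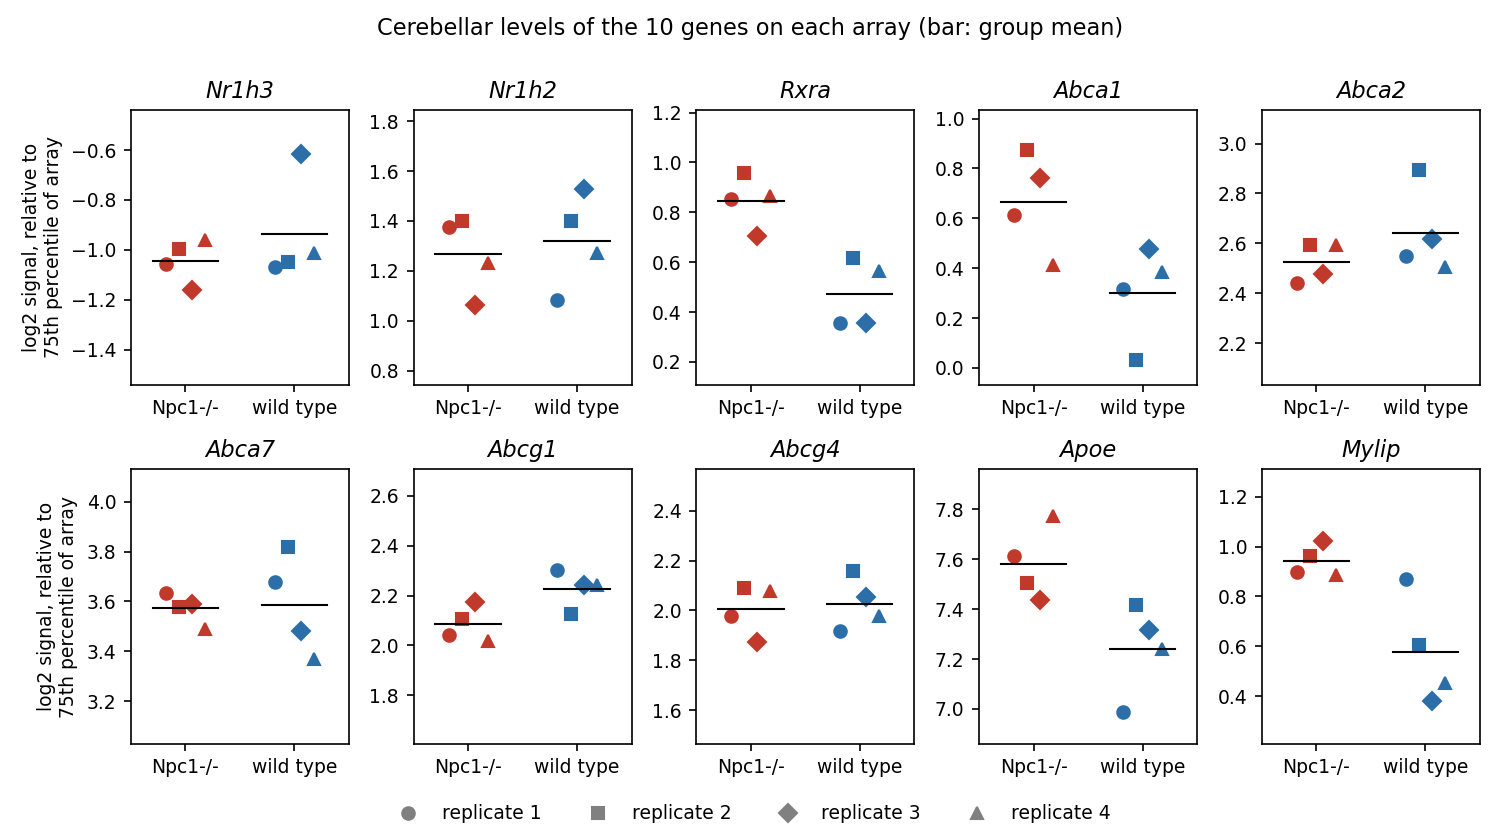
Levels of the 10 genes on each array, as log2 signal relative to the array's 75th percentile, with Npc1-/- in red at the left of each panel and wild type in blue at the right; marker shapes are replicate numbers, bars are group means, and every panel spans the same log2 range. The red and blue points do not overlap for Rxra, Apoe and Mylip and overlap for the other 7 genes.

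Only sequences that help to read a result are given. The first is the promoter of Abca1, the textbook LXR target. It is given because it holds the only match found among these genes to a loose form of the element that LXR pairs bind. That element is a direct repeat with 4 bases between its half-sites. It was searched as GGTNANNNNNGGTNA on both strands in the 250 bases before each annotated start. This pattern drops the first base of each half-site and leaves another free, so it is looser than the element. The sequence is from RefSeq, mouse build GRCm38.p6, chr4:53159896-53160145, minus strand, written 5′ to 3′ up to the base before the start, with the match in capitals; the match is to the motif on the opposite strand and begins 67 bases before the start.
Abca1 promoter: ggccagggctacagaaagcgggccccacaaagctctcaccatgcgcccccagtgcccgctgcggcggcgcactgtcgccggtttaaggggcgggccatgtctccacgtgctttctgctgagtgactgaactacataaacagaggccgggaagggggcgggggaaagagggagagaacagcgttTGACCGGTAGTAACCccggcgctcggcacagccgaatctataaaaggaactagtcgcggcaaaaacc

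Of 32841 promoters of that length, 204 (0.621%) held a match. RefSeq promoters were matched for 8 of the 10 genes, Abcg1 and Abcg4 not among them, and of those 8 only Abca1 held one. These windows are short, so nothing follows for the genes without a match.

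The second set shows how the array reads a gene. The Apoe probe is the one on which every Apoe value below rests. The second probes of Mylip and Abca7 are shown because they were dim where the main probe of the same gene was not. The second Mylip probe was still well above background on 4 Npc1-/- and 3 wild-type arrays. The second Rxra probe was dim too and is not shown. Positions are those of the files, in mouse build mm7: the Apoe probe lies at chr7:17378757-17378816 on the minus strand, the Mylip probe at chr13:44858383-44858442 on the plus strand, and the Abca7 probe at chr10:79779798-79780748 on the plus strand, where its 60 bases are spread over 951.
Apoe probe A_51_P171999: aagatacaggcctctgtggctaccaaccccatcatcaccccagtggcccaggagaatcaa
Mylip second probe A_52_P248343: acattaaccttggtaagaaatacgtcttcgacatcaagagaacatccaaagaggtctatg
Abca7 second probe A_52_P4928: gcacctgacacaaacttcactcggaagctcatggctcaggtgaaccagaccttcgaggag

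The receptors come first. Rxra encodes the retinoid X receptor alpha, with which LXRs pair to bind DNA. Its main probe read 0.85, 0.96, 0.70 and 0.86 on the Npc1-/- arrays, against 0.36, 0.62, 0.36 and 0.56 on the wild-type arrays. The lowest Npc1-/- value thus lay above the highest wild-type value. The level was 1.29-fold higher in Npc1-/- (log2 difference 0.37 ± 0.10 SE, 95% interval 0.14 to 0.61), with a limma adjusted p of 0.28 and an exact two-sided permutation p of 0.0286, the smallest that 4 arrays against 4 can give. Among the 17983 genes it ranked 403rd by p. The second Rxra probe lies 3095 bases away in mm7 and was dim, well above background on 4 Npc1-/- and 2 wild-type arrays. It read -4.62, -4.68, -5.51 and -4.75 on the Npc1-/- arrays, against -5.59, -5.31, -4.67 and -4.89 on the wild-type arrays, and these overlapped (log2 difference 0.22 ± 0.26 SE, limma adjusted p = 0.84 over 27164 probes).

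Nr1h2, which encodes LXR beta, the form made in most tissues, read 1.38, 1.40, 1.06 and 1.23 on the Npc1-/- arrays, against 1.08, 1.40, 1.53 and 1.27 on the wild-type arrays. The groups covered the same range (log2 difference -0.05 ± 0.13 SE, 95% interval -0.34 to 0.24, limma adjusted p = 0.89), and the sign turned under normexp background correction and under array weights. Nr1h3, which encodes LXR alpha, the form enriched in liver and macrophages, read -1.06, -0.998, -1.16 and -0.96 on the Npc1-/- arrays, against -1.07, -1.05, -0.62 and -1.01 on the wild-type arrays. Wild-type replicate 3 stood above the other 7 arrays, which lay within a narrow band (log2 difference -0.11 ± 0.12 SE, 95% interval -0.39 to 0.17, limma adjusted p = 0.79). Without that array the log2 difference was -0.0016.

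The receptors were also compared within arrays, as a ratio that does not depend on the scaling. The log2 ratio of Rxra to Nr1h2 averaged -0.42 ± 0.08 on the Npc1-/- arrays and -0.85 ± 0.22 on the wild-type arrays (SD, n = 4 each), a difference of 0.43, and the groups did not overlap. The ratio of Rxra to Nr1h3 averaged 1.89 ± 0.06 on the Npc1-/- arrays and 1.41 ± 0.31 on the wild-type arrays (SD, n = 4 each), a difference of 0.48. These pairs, and the 4 transporter pairs below, set the genes that read higher against others after the values were seen, so the ratios are a description with no test.

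Of the 5 transporters, Abca1 alone had a mean above that of wild type. It hands cholesterol and phospholipid to lipid-poor apolipoproteins at the plasma membrane. Abca1 read 0.61, 0.87, 0.76 and 0.41 on the Npc1-/- arrays, against 0.32, 0.03, 0.48 and 0.39 on the wild-type arrays. Npc1-/- replicate 4 lay below wild-type replicate 3, so the groups overlapped, and wild-type replicate 2, the array with the fewest probes above background, was the lowest. The level averaged 1.29-fold higher in Npc1-/- (log2 difference 0.36 ± 0.14 SE, 95% interval 0.05 to 0.68, limma adjusted p = 0.57, exact permutation p = 0.0571). Without wild-type replicate 2 the log2 difference was 0.27, and without Npc1-/- replicate 4 it was 0.45.

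Abcg1 moves cholesterol onto lipoprotein particles that already hold lipid, and like Abca1 it is an LXR target. It read 2.04, 2.11, 2.17 and 2.02 on the Npc1-/- arrays, against 2.30, 2.13, 2.24 and 2.24 on the wild-type arrays. Wild-type replicate 2 was the single wild-type array within the Npc1-/- range (log2 difference -0.14 ± 0.08 SE, 95% interval -0.34 to 0.05, limma adjusted p = 0.75). Within arrays, the log2 ratio of Abca1 to Abcg1 was -1.43, -1.23, -1.41 and -1.61 on the Npc1-/- arrays, against -1.99, -2.10, -1.77 and -1.86 on the wild-type arrays. Each Npc1-/- value lay above each wild-type value, with a difference of 0.51 between the means. The ratios of Abca1 to Abca2, Abcg4 and Abca7 were 0.48, 0.38 and 0.38 higher on average in Npc1-/-, with overlapping groups.

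Abcg4, the neuronal relative of Abcg1, read 1.98, 2.09, 1.87 and 2.08 on the Npc1-/- arrays, against 1.92, 2.16, 2.05 and 1.98 on the wild-type arrays. The groups were interleaved (log2 difference -0.02 ± 0.10 SE, 95% interval -0.24 to 0.20, limma adjusted p = 0.95). Abca7, a relative of Abca1 that acts on phospholipid and phagocytosis, read 3.64, 3.58, 3.59 and 3.49 with its main probe on the Npc1-/- arrays, against 3.68, 3.82, 3.48 and 3.37 on the wild-type arrays. All Npc1-/- values lay inside the wild-type range (log2 difference -0.01 ± 0.11 SE, 95% interval -0.28 to 0.25, limma adjusted p = 0.98). The signs of these differences are not settled, since both turned under quantile normalization and under array weights, and that of Abcg4 also under normexp. The second Abca7 probe, printed above, was well above background on 2 Npc1-/- arrays and 1 wild-type array and was not tested. It read -5.73, -6.44, -5.72 and -6.02 on the Npc1-/- arrays, against -3.97, -3.78, -6.43 and -6.39 on the wild-type arrays.

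Abca2 is a transporter of late endosomes and lysosomes that is abundant in oligodendrocytes, the myelin-forming cells. Its main probe read 2.44, 2.59, 2.48 and 2.59 on the Npc1-/- arrays, against 2.55, 2.89, 2.62 and 2.50 on the wild-type arrays, with the highest value on wild-type replicate 2 (log2 difference -0.12 ± 0.11 SE, 95% interval -0.36 to 0.13, limma adjusted p = 0.76). The second probe, 339 bases away in mm7, read 1.92, 1.97, 1.86 and 2.05 on the Npc1-/- arrays, against 1.95, 2.41, 2.11 and 2.00 on the wild-type arrays. Both probes put wild-type replicate 2 on top and neither passed the test (second probe -0.17 ± 0.12 SE, limma adjusted p = 0.81). Across probes, 13 of the 14 passed the signal filter and none of the 13 passed the test, where 0.523% of all probes did.

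Apoe is the main apolipoprotein of the brain, made chiefly by astrocytes and also by microglia. Its probe, spotted 10 times on each array, read 7.61, 7.51, 7.44 and 7.77 on the Npc1-/- arrays, against 6.99, 7.42, 7.32 and 7.24 on the wild-type arrays. The Npc1-/- arrays all lay above the wild-type arrays, though narrowly, with Npc1-/- replicate 3 next to wild-type replicate 2. The level was 1.27-fold higher in Npc1-/- (log2 difference 0.34 ± 0.12 SE, 95% interval 0.06 to 0.62), with a limma adjusted p of 0.52 and an exact permutation p of 0.0286. Among the Npc1-/- arrays, replicate 4 had the highest Apoe and the lowest Abca1.

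Mylip, also called Idol, is an E3 ubiquitin ligase that LXRs induce and that sends receptors for lipoproteins to lysosomes. Its main probe read 0.90, 0.96, 1.02 and 0.88 on the Npc1-/- arrays, against 0.87, 0.61, 0.38 and 0.45 on the wild-type arrays. The Npc1-/- arrays were close together, and wild-type replicate 1 lay just below them. The level was 1.29-fold higher in Npc1-/- (log2 difference 0.36 ± 0.12 SE, 95% interval 0.09 to 0.64, limma adjusted p = 0.43, exact permutation p = 0.0286). The dim second probe, 2977 bases away in mm7 and above background on 4 Npc1-/- and 3 wild-type arrays, read -4.66, -4.94, -4.91 and -4.77 on the Npc1-/- arrays, against -4.84, -5.56, -5.46 and -4.49 on the wild-type arrays, with wild-type replicate 4 the highest of all (log2 difference 0.27 ± 0.23 SE, limma adjusted p = 0.81).

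The arrays lay on 4 slides. A pair of Npc1-/- and wild-type arrays shared slide 2 and another pair slide 4, while slide 3 carried Npc1-/- replicates 1 and 4 with wild-type replicate 2. Slide 1 carried no Npc1-/- array. Within slides 2, 3 and 4 the log2 difference was 0.40, 0.48 and 0.45 for Abca1, 0.19, 0.28 and 0.45 for Apoe, 0.58, 0.28 and 0.15 for Mylip, and 0.60, 0.24 and 0.35 for Rxra. All of these differences were above 0, though each value rests on 1 wild-type array. For Rxra, Mylip and Apoe that sign was fixed beforehand, since all their Npc1-/- arrays lay above all wild-type arrays. The groups of Abca1 overlapped, but only through Npc1-/- replicate 4 on slide 3 and wild-type replicate 3 on slide 2. No slide held both of these arrays, so the array values fixed the sign for Abca1 too. With the slide as a block the limma adjusted p was 0.30 for Abca1, 0.55 for Apoe, 0.55 for Mylip and 0.46 for Rxra.

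**Figure D2:**
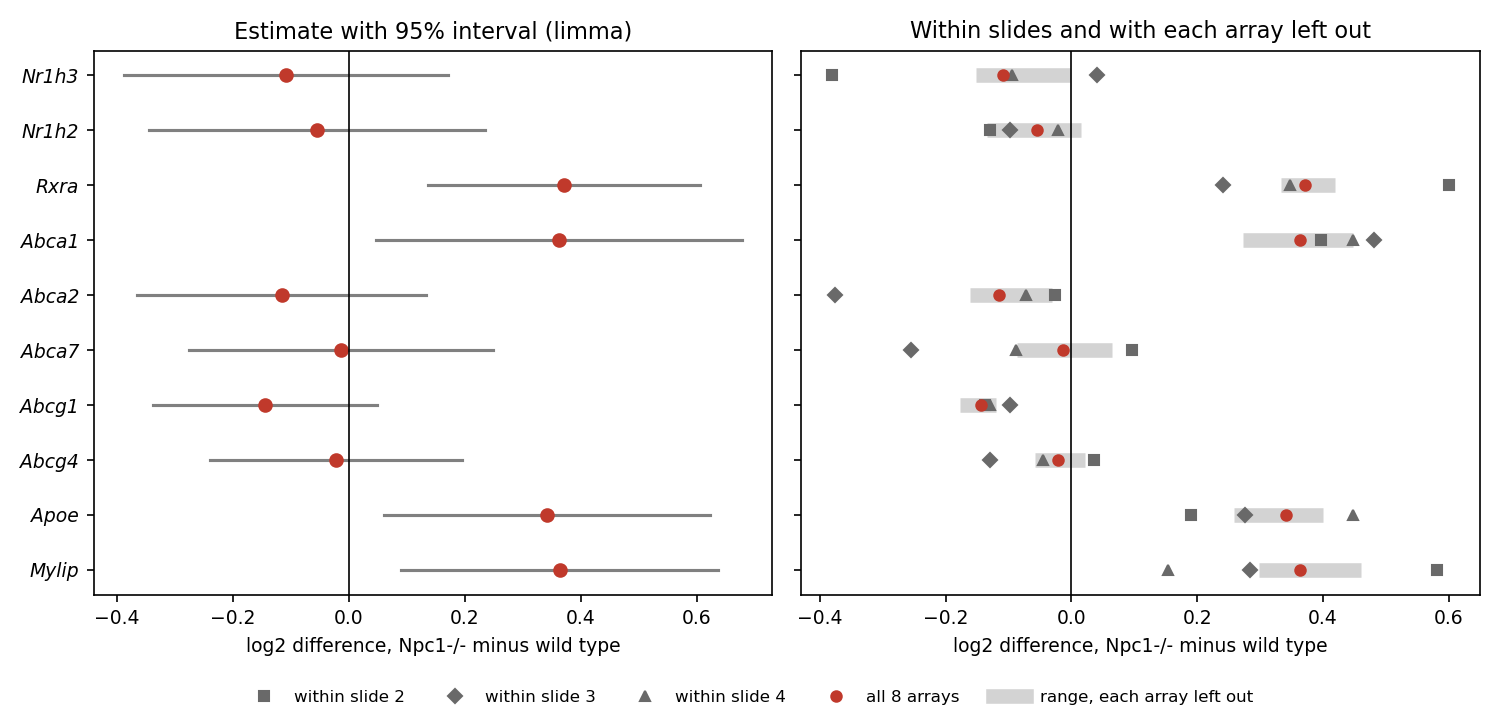
Log2 difference, Npc1-/- minus wild type, for the 10 genes: at the left the limma estimate with its 95% interval, and at the right the same estimate (red), the differences within slides 2, 3 and 4 (dark symbols) and the range when each array is left out in turn (grey bar). The intervals of Rxra, Abca1, Apoe and Mylip lie above 0 before adjustment over all genes, and the other 6 intervals include 0.

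The surrounding pathway was read from lists of named genes. Among other LXR targets, 13 of 17 passed the signal filter and none passed the test; Abcg5, Abcg8, Cd5l and Cyp7a1 were too dim. Their median log2 difference was 0.11, with 10 of the 13 above 0, where 46.6% of all genes were. The 3 below 0 were the genes of fatty acid synthesis and desaturation Scd1, Scd2 and Fasn, at -0.26 ± 0.16 SE, -0.16 ± 0.10 SE and -0.14 ± 0.11 SE (limma adjusted p = 0.75 for each). The summed signal of the list, in which bright genes weigh most, was 116 to 133 on the Npc1-/- arrays and 123 to 144 on the wild-type arrays, and overlapped. Apoc2, the cofactor of lipoprotein lipase, read -4.48, -4.83, -4.48 and -4.08 on the Npc1-/- arrays, against -5.48, -5.88, -5.72 and -5.02 on the wild-type arrays. All Npc1-/- values were higher (log2 difference 1.06 ± 0.22 SE, limma adjusted p = 0.092), on a dim probe above background on 4 Npc1-/- and 3 wild-type arrays. Lpl, the lipase itself, differed by 0.52 ± 0.17 SE with overlapping groups (limma adjusted p = 0.43).

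In the RefSeq gene order, Apoe lies between Apoc1 and Tomm40, with Apoc4 and Apoc2 beyond Apoc1. These neighbours were looked up after the values were seen. Apoc1 differed by 0.19 ± 0.12 SE and Tomm40, which encodes a mitochondrial import channel, by -0.18 ± 0.12 SE (limma adjusted p = 0.75 for each), and Apoc4 was too dim to test.

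The enzymes that make or process oxysterols were all measured, 7 of 7, and none passed (median log2 difference 0.05). Ch25h, which makes 25-hydroxycholesterol, read -5.51, -5.48, -4.68 and -5.05 on the Npc1-/- arrays, against -6.11, -5.95, -5.92 and -6.20 on the wild-type arrays. It was well above background on all 4 Npc1-/- arrays and on 0 of the 4 wild-type arrays, so it entered the test through the group in which it was higher. Against the lowest signal called above background on each wild-type array, or the probe's own where higher, its mean was at least 1.15-fold higher in Npc1-/-. That lowest signal ran from -6.04 to -3.90 between arrays. The value of -3.90 lies above every Npc1-/- reading, so against that array no difference can be read. This bound carries no error. Cyp7b1, which clears oxysterols, read 0.20, 0.25, 0.11 and 0.44 on the Npc1-/- arrays, against -0.04, -0.11, 0.10 and -0.11 on the wild-type arrays; the groups lay close without overlapping (log2 difference 0.29 ± 0.10 SE, limma adjusted p = 0.51).

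The other RXR genes and the coactivators and corepressors of nuclear receptors, 13 of 13 measured, gave no call and a median of -0.03. The 2 with the smallest p were the RXR paralogs, Rxrb at -0.23 ± 0.15 SE and Rxrg at 0.23 ± 0.16 SE (limma adjusted p = 0.75 for each). The receptors that Mylip degrades, 3 of 3 measured, gave no call either. Vldlr, a receptor that binds Apoe, differed by -0.14 ± 0.14 SE (limma adjusted p = 0.77).

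Among other apolipoproteins and proteins that remodel lipoproteins, 5 of 8 passed the filter and none the test (median 0.11). Apod, a lipid-binding carrier made by glia, read 2.45, 2.40, 2.33 and 2.43 on the Npc1-/- arrays, against 1.80, 2.17, 1.95 and 1.70 on the wild-type arrays. The groups were apart (log2 difference 0.50 ± 0.11 SE, limma adjusted p = 0.14), and under array weights 1 gene of this list passed. Clu, a secreted chaperone that also rides on brain lipoproteins, differed by 0.20 ± 0.12 SE (limma adjusted p = 0.75). Of the other ABCA and ABCG transporters, 7 of 11 passed the filter and none the test (median 0.01). The smallest p values were those of Abca9, on a dim probe, at 0.74 ± 0.33 SE, and Abca8a, at -0.24 ± 0.16 SE (limma adjusted p = 0.67 and 0.75).

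**Figure D3:**
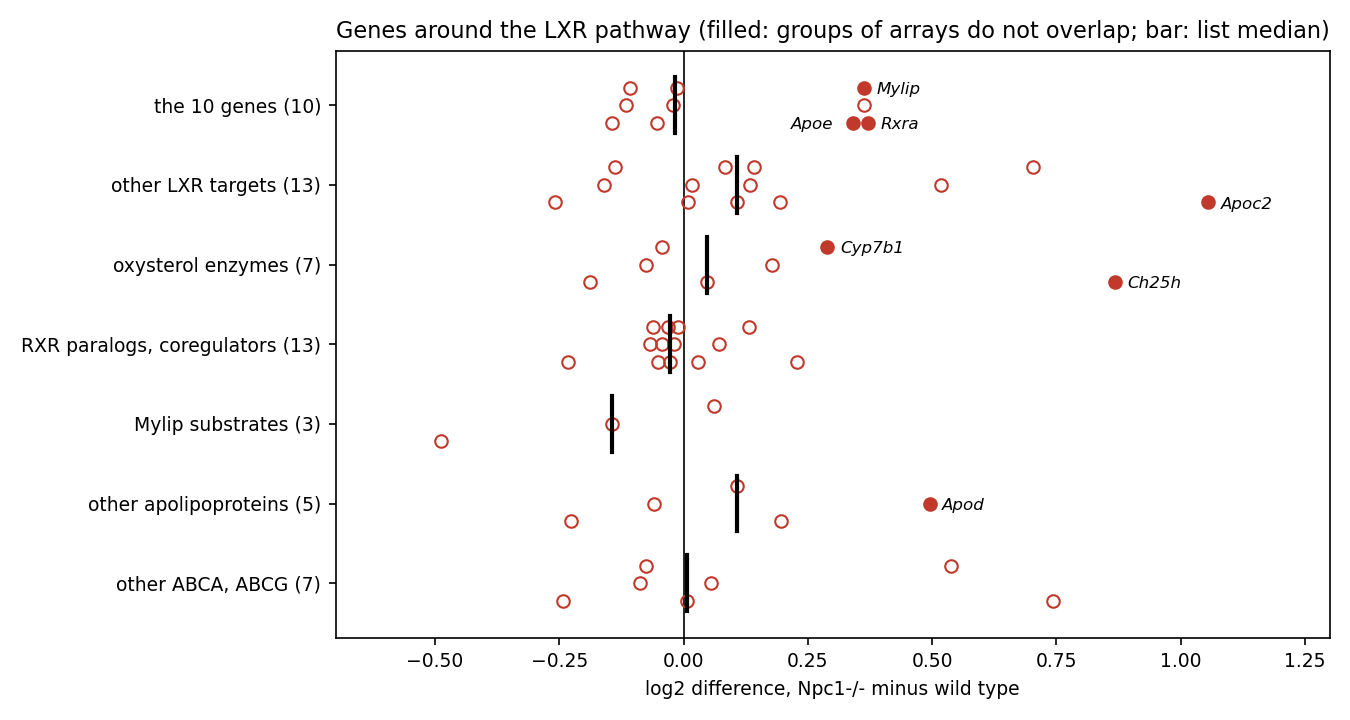
Log2 difference, Npc1-/- minus wild type, of each tested gene in the 10-gene set and in 6 lists around it, with the number tested in parentheses; filled circles are genes whose Npc1-/- and wild-type arrays do not overlap and black bars are list medians. No gene shown passed an adjusted p of 0.05; Apoc2, Ch25h, Apod, Cyp7b1, Mylip, Rxra and Apoe are filled.

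Markers of cell types were read beside these genes, because several are made mostly by glia; in whole tissue, fewer cells of a type and less RNA per cell cannot be told apart. Of 17 markers of microglia and macrophages, 9 rose, none fell and all 17 lay above 0 (median log2 difference 1.23). The 9 include Gpnmb and Itgax, which were well above background on 4 Npc1-/- arrays but on 0 and 1 wild-type arrays and so entered the test through the group in which they were higher. Among the 13 markers well above background on all 8 arrays, 7 rose, with a median of 1.14. Summed over all 17 markers, signals relative to the array's 75th percentile ran from 40.0 to 51.3 on the Npc1-/- arrays. On the wild-type arrays these sums ran from 15.3 to 19.0. No marker was at 0; Gpnmb, a lysosomal and membrane glycoprotein of activated macrophages, cleared the background on 0 of the 4 wild-type arrays. Lyz2, the lysozyme of macrophages, rose by 3.03 ± 0.19 SE (limma adjusted p = 0.00045). The list did not move evenly, and 8 markers were not called. Among these 8, Csf1r, P2ry12 and Tmem119 differed by 0.47 ± 0.18 SE, 0.25 ± 0.19 SE and 0.14 ± 0.18 SE. Their groups overlapped (limma adjusted p = 0.59, 0.75 and 0.81). Rxra, Apoe, Mylip and Abca1 had differences of the same sign as this list; its part in their differences was not tested.

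The 11 markers of astrocytes and Bergmann glia, the cells that make much of cerebellar Apoe, gave no call, with a median of 0.0045 and summed signals of 322 to 349 on the Npc1-/- arrays and 331 to 412 on the wild-type arrays. The brightest, Aldoc, a glycolytic enzyme, differed by 0.0045 ± 0.098 SE, and S100b, a calcium-binding protein, by -0.15 ± 0.13 SE (limma adjusted p = 0.99 and 0.76). The median covers genes on both sides of 0. Gfap, the intermediate filament of reactive astrocytes, read 1.81, 2.13, 1.85 and 2.15 on the Npc1-/- arrays, against 0.86, 1.45, 0.61 and 0.68 on the wild-type arrays, without overlap (log2 difference 1.08 ± 0.19 SE, limma adjusted p = 0.052). Fabp7, a fatty acid carrier of Bergmann glia, differed by -0.59 ± 0.21 SE with overlapping groups (limma adjusted p = 0.50).

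All 10 markers of myelinating oligodendrocytes lay below 0 and none passed the test (median -0.60), but 6 passed under array weights and 3 with a trended, robust prior. Their summed signal was 253 to 308 on the Npc1-/- arrays and 335 to 444 on the wild-type arrays. The myelin gene Mbp differed by -0.19 ± 0.12 SE (limma adjusted p = 0.75). Both Abca2 probes lay below 0 beside them, and wild-type replicate 2 was the highest array for Abca2 and for this list; the part of these cells in the Abca2 readings was not tested.

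None of the other 4 lists held a call. The median was -0.22 for 8 Purkinje cell markers, with Itpr1 at -0.03 ± 0.12 SE and Pcp4 at -0.26 ± 0.13 SE, and -0.26 for 9 granule cell markers, all below 0, with Cbln1 at -0.21 ± 0.14 SE and Zic1 at -0.26 ± 0.12 SE. It was -0.04 for 9 markers of endothelium and pericytes, with Cldn5 at -0.02 ± 0.13 SE and Flt1 at 0.28 ± 0.14 SE. It was -0.0034 for the 7 tested of 8 choroid plexus markers, with Ttr at -0.35 ± 0.66 SE and Clic6 at 0.05 ± 0.34 SE. The choroid plexus list spread most between arrays, from a summed signal of 2.29 to 12.5 on the Npc1-/- arrays and of 5.88 to 9.14 on the wild-type arrays, with Npc1-/- replicate 3 the lowest.

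**Figure D4:**
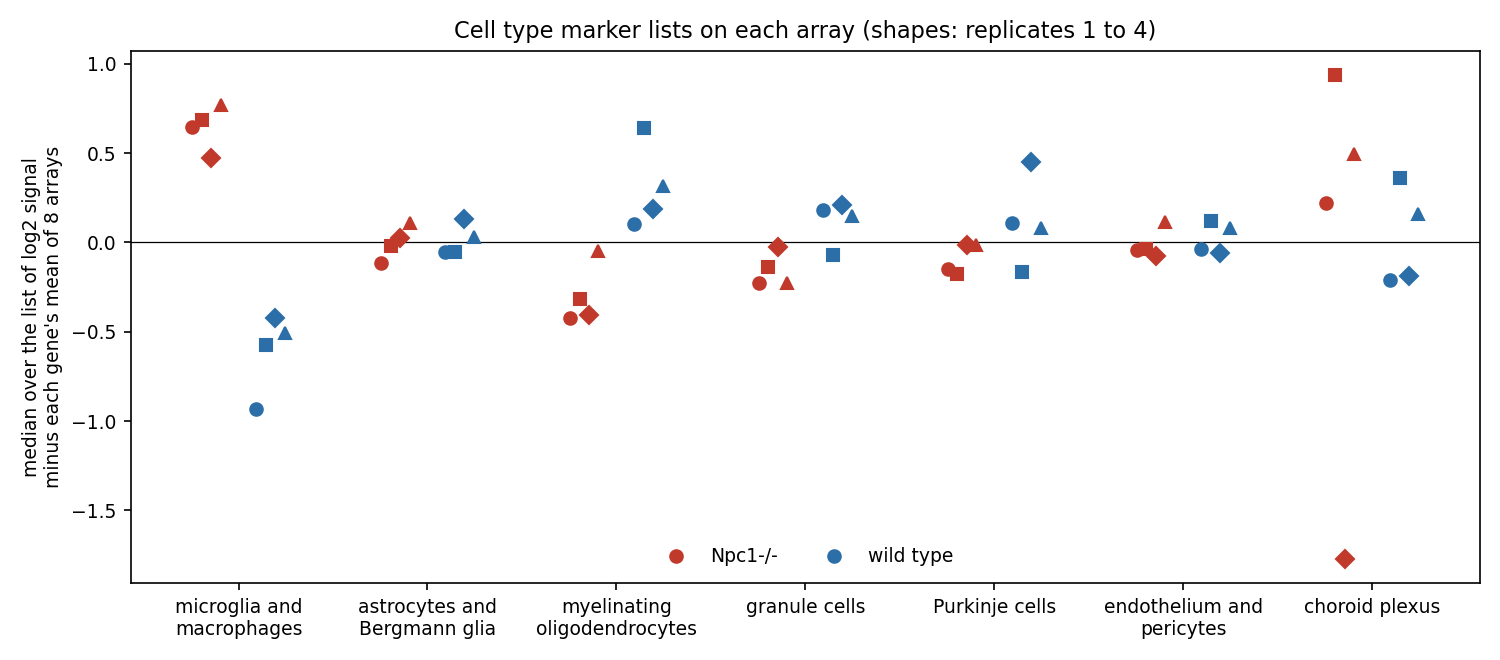
Cell type marker lists on each array: for each list, the median over its genes of the log2 signal minus the gene's mean over 8 arrays, with Npc1-/- in red at the left and wild type in blue at the right and shapes for replicates 1 to 4. The microglia and macrophage list runs from 0.47 to 0.77 on the Npc1-/- arrays and from -0.93 to -0.42 on the wild-type arrays, and the oligodendrocyte list runs from -0.42 to -0.05 on the Npc1-/- arrays and from 0.10 to 0.64 on the wild-type arrays.

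The genes whose pattern over the 8 arrays was most like that of Abca1, by root mean square difference of mean-centred log2 values, were Brpf3, Lonrf3 and Pyroxd2, at 0.11, 0.12 and 0.12, where the median over all genes was 0.32. For Apoe they were Eno4, Plcg2 and Cmbl, at 0.049, 0.055 and 0.057, where the median was 0.30. None of these 6 genes passed the test between genotypes. Each trio was picked as the nearest of all genes tested, so its values lie below the median by selection. Neither trio includes another of the 10 genes, as most trios drawn from 17983 genes would not.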

How the data were processed

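The authors deposited intensity values per spot, exported by the scanner software, which the submitters' processing notes name as Agilent Feature Extraction 9.5. Processed signals were background-subtracted within each array, per the file headers, and were not scaled between arrays. Other deposited columns flag spots well above background, saturated or outlying, per the file headers. Processed signals were turned into log2 minus each array's 75th percentile over non-control spots. Outlier spots (74 to 115 per array) were set to missing, no non-control spot was saturated, and spots of 1 probe were averaged. A probe entered the tests if 4 or more of the 8 arrays had it well above background (27164 of 41174), and each gene took its probe with the highest mean (17983 genes). The test between genotypes was limma's moderated one (limma 3.58.1, R 4.3.3; two-sided, lmFit then eBayes, with Benjamini-Hochberg adjustment over all genes or probes and a threshold of 0.05); single genes also had an exact permutation test. The number of arrays limits the precision.

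The 10 genes, the lists and the rules were chosen with earlier results of these data known. Named beyond the 10 were Npc1, per pathway list the 2 genes with the smallest p, and per marker list the 2 with the highest signal. The 3 genes most like Abca1 and Apoe were named too. A few of the genes so chosen are left out of the text. Apoe's neighbours, Apoc4, Scd1, Scd2, Fasn, Gpnmb, Itgax, Csf1r, P2ry12, Tmem119, Gfap and Fabp7 were added after their values were seen. Gene names were updated through RefSeq (GRCm38.p6): an accession matched for 22951 probes, a symbol for 6659 and a synonym for 3109, and the files' own name was retained for 8455. Promoters are RefSeq's. The 8 Illumina arrays, 16 value columns in a table whose probe numbers are paired with no gene names, were not used here. The fit was tested on simulated data. Plots were drawn with matplotlib 3.10.9. Alternatives were other normalizations, signal filters, blocks, array weights, probe rules and leaving out each array.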

Additional observations from a re-analysis of the deposited data

Results flagged for a closer look

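In 30 groups of 4 arrays (the 14 probes of the 10 genes and the Npc1 probe, each in both genotypes), the gap between the highest or lowest array and its nearest neighbour was divided by the group's range and compared with Dixon's 95% critical value for 4 samples. There were 2 groups above it, and chance flags about 1 in 20. For Nr1h3 in wild type the ratio was 0.876, because replicate 3 read -0.62 where the next highest array read -1.01. For the second, dim Rxra probe in Npc1-/- the ratio was 0.859, because replicate 3 read -5.51 where the next lowest read -4.75.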

How the results depend on the processing

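None of the 10 genes passed under any of 18 alternative fits, 8 of which left out 1 array each. Rxra, Mylip, Abca1 and Apoe kept their direction in all 18, with log2 differences of 0.30 to 0.42, 0.30 to 0.46, 0.27 to 0.45 and 0.26 to 0.40 and lowest limma adjusted p-values of 0.11, 0.10, 0.14 and 0.17. Their exact permutation p of 0.0286 (Abca1 0.0571) is not adjusted. With 1 array left out, the direction of Rxra, Mylip and Apoe could not turn, since their groups do not overlap. The other signal filters, the replicate block and the trended, robust prior left the log2 differences of all these genes as reported. They could not do otherwise, since they keep the same probe and the same difference of group means. These fits are therefore no check of the direction. The median of all genes moved by less than 0.1 under every alternative.

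The number of genes called, 138, became 87 under quantile normalization, 59 with no signal filter, 88 with all 8 arrays above background, 38 with the slide as a block and 313 under array weights; it ran from 55 to 148 with 1 array left out. Leaving out Npc1-/- replicate 1 gave 65, replicate 2 gave 60 and replicate 4 gave 55, and leaving out wild-type replicate 4 gave 86. The number of probes called, 142, became 90, 62, 85, 36 and 291 in the same order, 94 with the scan day as a block, and 57 to 148 with 1 array left out. The cause was not tested.

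Samples of the 2 genotypes share replicate numbers that the labels tie to nothing: deviations from the group means correlated at 0.15, 0.038, -0.45 and 0.20 for numbers 1 to 4, and not every array correlated best with its own number. With the replicate block, 27 genes, 26 probes and 0 of the 10 genes were called.

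Signs turned for Abcg4 (0.036 under quantile normalization, 0.10 under normexp, 0.016 under array weights, -0.058 to 0.022 with 1 array left out), Abca7 (0.052 under quantile normalization, 0.10 under array weights, -0.086 to 0.064 with 1 array left out) and Nr1h2 (0.066 under normexp, 0.038 under array weights, -0.13 to 0.015 with 1 array left out). The cause was not tested. Of the microglia and macrophage markers, 9 in the reported fit, 11 were called under array weights and with a trended, robust prior, 10 under normexp and quantile normalization, 8 with the scan day block, 7 with the slide block, 7 of 13 with all 8 arrays above background, 6 with no signal filter, 5 with the replicate block and 5 to 9 with 1 array left out (5 without Npc1-/- replicate 1, 2 or 4). Of the oligodendrocyte markers, 6 were called under array weights, 3 with a trended, robust prior, 1 under normexp, 1 with the scan day block and 0 to 1 with 1 array left out (1 without wild-type replicate 1). Of the astrocyte markers 1 was called under array weights, a trended, robust prior, normexp and all 8 arrays above background, and 0 to 1 with 1 array left out (1 without wild-type replicate 2). Of the remaining lists, the 18 fits gave 1 call, an apolipoprotein list gene under array weights. The Illumina fit was not run, since its probes have no names here. Dim probes, the second ones of Mylip, Rxra and Abca7 and those of Apoc2, Ch25h and Abca9, limit what can be read from them.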
